A study of Homo sapiens with 10 samples.

Results

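NK-92 cells collected 6 h after either of 2 agents that limit iron supply were compared, as a single early-treated side, with untreated cells. The comparison rests on 6 of the 10 libraries of the series, chosen by their labels: 2 of untreated cells, 2 of cells given deferoxamine (DFO, 500 µM) for 6 h and 2 of cells given the antibody PPMX-T003 (T003 below, 10 µg/mL) for 6 h. The other 4 libraries are of cells kept with DFO or T003 for 24 h. NK-92 is an established human line of malignant natural killer cells, kept here in medium with human serum. All libraries are of polyadenylated RNA of the same unmodified line. The untreated cells were labelled 0 h, and no untreated library at 6 h is used here, so the agents and 6 h of further culture cannot be told apart. No label says that the libraries of a group came from separate cultures, so the p-values rest on the spread between libraries alone, and that spread may be technical. In bulk RNA, fewer cells with a transcript and less of it per cell cannot be told apart.

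Cells take up iron by binding transferrin to the transferrin receptor, the product of TFRC, and bringing the complex into endosomes. DFO chelates iron, while T003 binds the receptor and keeps transferrin from it. When iron is scarce, iron regulatory proteins bind hairpins called iron-responsive elements. In the 3′ UTR of TFRC this protects the mRNA from decay, whereas in the 5′ UTR of the ferritin genes FTH1 and FTL it blocks translation and leaves the mRNA in place. Lymphocytes raise TFRC when cytokines such as IL-2, on which NK-92 depends, drive them to divide.

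The hairpins are shown because the gene with the clearest difference at 6 h, TFRC, carried more of them than any other gene. Each line is 17 bases of the transcript strand, 5′ to 3′, with T for U, from hg38 and GENCODE models. The capitals mark the 6 bases of the loop, CAGTGN, and the first c is the bulged base.
TFRC 3′ UTR, chr3:196050985-196051001, minus strand: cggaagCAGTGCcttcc
TFRC 3′ UTR, chr3:196050581-196050597, minus strand: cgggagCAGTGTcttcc
TFRC 3′ UTR, chr3:196050516-196050532, minus strand: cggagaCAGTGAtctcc
TFRC 3′ UTR, chr3:196050469-196050485, minus strand: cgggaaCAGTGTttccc
FTH1 5′ UTR, chr11:61967580-61967596, minus strand: cttcaaCAGTGCttgga
FTL 5′ UTR, chr19:48965341-48965357, plus strand: cttcaaCAGTGTttgga
The search asked for a C, 5 bases, CAGTGN and 5 bases able to pair with the first 5 (G with T allowed), on the transcript strand of the UTRs of 20018 coding genes. It found at least 1 match in 140 genes (0.699%), 18 with a match in the 5′ UTR and 122 in the 3′ UTR. Matches numbered 1 in 136 genes, 2 in 3 genes and 4 in TFRC alone. A match is a description of letters and not a tested site.

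Each library held between 107117892 and 143575614 estimated counts, with 23381 to 24330 genes detected. Values are CPM, which scales the counts of every library to the same total, after TMM scaling, which corrects for library composition with factors here between 0.991 and 1.01. Of 54628 gene symbols, 20125 passed the filter on low counts and were tested with edgeR's quasi-likelihood F-test. Benjamini-Hochberg adjustment took in every gene tested, and a gene is called changed at an adjusted p under 0.05. Sums of cell type markers are in CPM without TMM scaling. The 14 natural killer markers summed to 2499 to 2518 CPM in untreated and 2436 to 2483 CPM in treated libraries, and none was at 0 in all 6. Of 8 T cell markers, CD3G and CD8B had no count in any of the 6 libraries, and the sum of 437.5 to 439.4 CPM in untreated and 421.3 to 434.4 CPM in treated libraries was almost all CD3E. The B cell markers MS4A1, CD79B and BLK and the erythroid markers HBB, KLF1 and GATA1 had no count. The highest sum in any of the 6 libraries was 2.231 CPM for B cell, 10.65 CPM for myeloid, 0.2808 CPM for erythroid and 0.8752 CPM for epithelial and fibroblast markers, of which EPCAM, KRT18 and KRT19 had no count.

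At 6 h, 6 genes were called: TFRC, PPP1R16B, RBM12 and the uncharacterised LOC119746555 and LOC107986708 rose, and PIM2 fell. The genes called higher were 0.0248% and the gene called lower 0.00497% of those tested. At an unadjusted p under 0.05, 1093 genes were higher and 1177 lower. TFRC was the one gene at 2-fold or more, averaging 2 or more in log2 CPM, that was not a symbol overlapping a readthrough transcript. The other 10 of 11 such genes were readthrough symbols or parts of one, and none of the 10 was called.

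TFRC encodes the receptor that T003 binds. Its levels were 177 and 165 CPM in untreated cells, 361 and 345 CPM after DFO, and 437 and 419 CPM after T003. All 4 treated libraries lay above both untreated ones, by a wide margin, and the T003 libraries lay above the DFO libraries. TFRC (chr3:196049284-196082090) rose 2.27-fold at 6 h (log2 1.18, SE 0.0315, 95% interval 1.11 to 1.25, adjusted p = 1.6e-08). Against the same untreated libraries the log2 change was 1.04 (SE 0.0348) for DFO and 1.32 (SE 0.0349) for T003. At 24 h the levels were 834 and 833 CPM with DFO and 845 and 847 CPM with T003, a further rise of 1.11 (log2, SE 0.0244, adjusted p = 2.04e-09) over the 6 h libraries. TFRC stayed called under all 21 alternatives tried, with log2 changes of 1.13 to 1.24.

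PIM2, a serine/threonine kinase gene induced by cytokine receptors through STAT5, was the one called fall. It stood at 138 and 144.3 CPM in untreated cells, 116 and 119 CPM after DFO, and 122 and 120 CPM after T003. The treated libraries of both agents lay close together and below both untreated libraries. PIM2 (chrX:48913182-48919024) fell by 0.24 on the log2 scale (SE 0.0239, adjusted p = 0.00677), and it stayed called under all 21 alternatives, with log2 changes of -0.27 to -0.21. At 24 h it was at 121 and 119 CPM with DFO and at 131 and 129 CPM with T003, a difference from 6 h of 0.06 (log2, SE 0.0197, adjusted p = 0.0429).

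PPP1R16B, which encodes a regulatory subunit that targets protein phosphatase 1 to membranes, had 439 and 435 CPM in untreated cells. After 6 h it had 481 and 473 CPM with DFO and 491 and 501 CPM with T003, so the groups did not overlap. PPP1R16B (chr20:38805697-38923024) rose by 0.15 (log2, SE 0.0187, adjusted p = 0.0222), and at 24 h it stood at 378 and 373 CPM with DFO and at 455 and 448 CPM with T003. The difference between 24 h and 6 h was -0.24 (log2, SE 0.0152, adjusted p = 1.78e-06). The call for PPP1R16B held under 12 of 21 alternatives, and adjusted p ran up to 0.233.

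LOC119746555 (chr20:32856632-32858751, a long noncoding RNA gene) had 46 and 36 estimated counts in untreated cells. It had 114 and 175 counts after DFO and 125 and 161 after T003, which in CPM is 0.32 and 0.281 against 1.06 to 1.32. The rise of LOC119746555 was 3.85-fold (log2 1.95, SE 0.207, adjusted p = 0.0104). LOC107986708 had no count in either untreated library and 40, 58, 38 and 55 counts in the treated ones. Against a floor of 3 counts per library it was at least 17.41-fold higher. At 24 h LOC107986708 had 14 and 26 counts with DFO and 35 and 16 with T003. Without untreated replicate 1 the adjusted p of both was 0.115, and without untreated replicate 2 it was 0.0548 for LOC119746555 and 0.0542 for LOC107986708. 

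**Figure D1:**
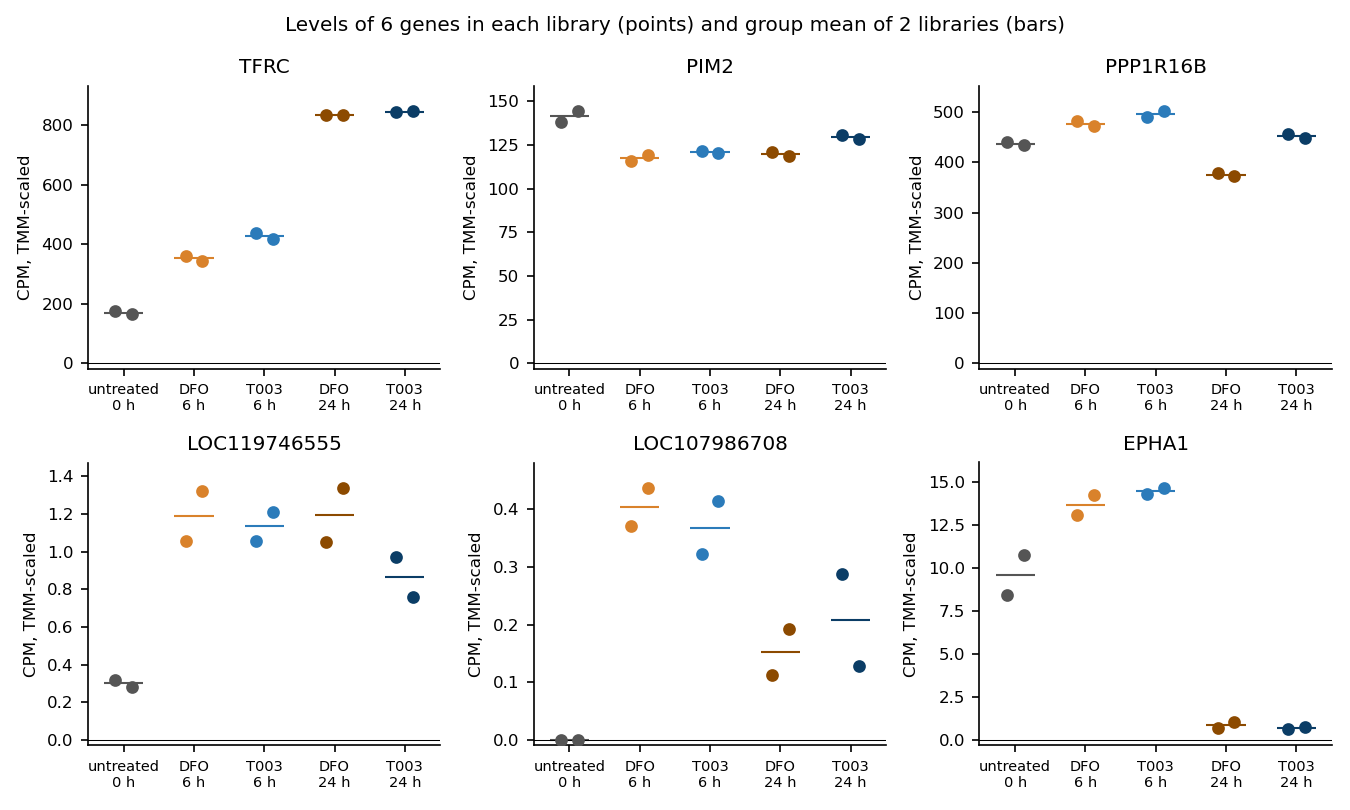
Levels (CPM, TMM-scaled, axes from 0) of TFRC, PIM2, PPP1R16B, LOC119746555, LOC107986708 and EPHA1 in each library (points) of untreated cells and of cells at 6 h and 24 h of DFO or T003, with bars at the mean of 2 libraries. TFRC was at 165 to 177 CPM untreated, 345 to 437 CPM at 6 h and 833 to 847 CPM at 24 h, while EPHA1 stood above untreated at 6 h and near 0 at 24 h.

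RBM12, an RNA-binding protein gene, was called at 6 h (log2 0.16, SE 0.0206, adjusted p = 0.0422), but it shares its locus with CPNE1, a copine gene. RBM12 was at 168 and 169 CPM in untreated cells, 185 and 184 CPM after DFO and 195 and 188 CPM after T003. CPNE1 was at 267 and 260 CPM untreated and at 234 to 251 CPM in the treated libraries (log2 -0.13, SE 0.0277, adjusted p = 0.183). Summed, RBM12 and CPNE1 overlapped between the sides and differed by -0.01 (log2, SE 0.0197, adjusted p = 0.912). RBM12 was higher where CPNE1 was lower, and the locus as a whole was not called.

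Other overlapping symbols also differed in how the counts of a locus were divided between them. ZFP91-CNTF, a readthrough symbol, had 5329 and 3525 counts in untreated cells, none in 3 treated 6 h libraries and 3327 in T003 replicate 2. CNTF had 35 and 50 counts untreated, 462, 542 and 485 in those 3 libraries, and 69 in T003 replicate 2. ZFP91, the E3 ubiquitin ligase gene of that locus, was at 216 and 223 CPM untreated and 242 to 264 CPM treated (log2 0.21, SE 0.0304, adjusted p = 0.0576). The sum of ZFP91, CNTF and ZFP91-CNTF was 0.07 higher (log2, SE 0.0229, adjusted p = 0.309). TVP23C-CDRT4 had a log2 difference of 3.37 (SE 0.712, adjusted p = 0.182), while the sum of TVP23C, CDRT4 and TVP23C-CDRT4 was at 19.7 and 20.5 CPM untreated and 20.2 to 20.7 CPM treated. When 152 such loci, RBM12 with CPNE1 and PYURF with PIGY among them, were each summed, 6 features were called, of which 5 were TFRC, PIM2, PPP1R16B, LOC119746555 and LOC107986708. The sixth was RBPJ, at an adjusted p of 0.0328. None of these 6 was part of a summed locus, so the sums did not test whether they overlap other symbols. Overlaps of these genes with other symbols are not reported here. LOC107986708 had no RefSeq coordinates, so its overlaps were not checked.

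**Figure D2:**
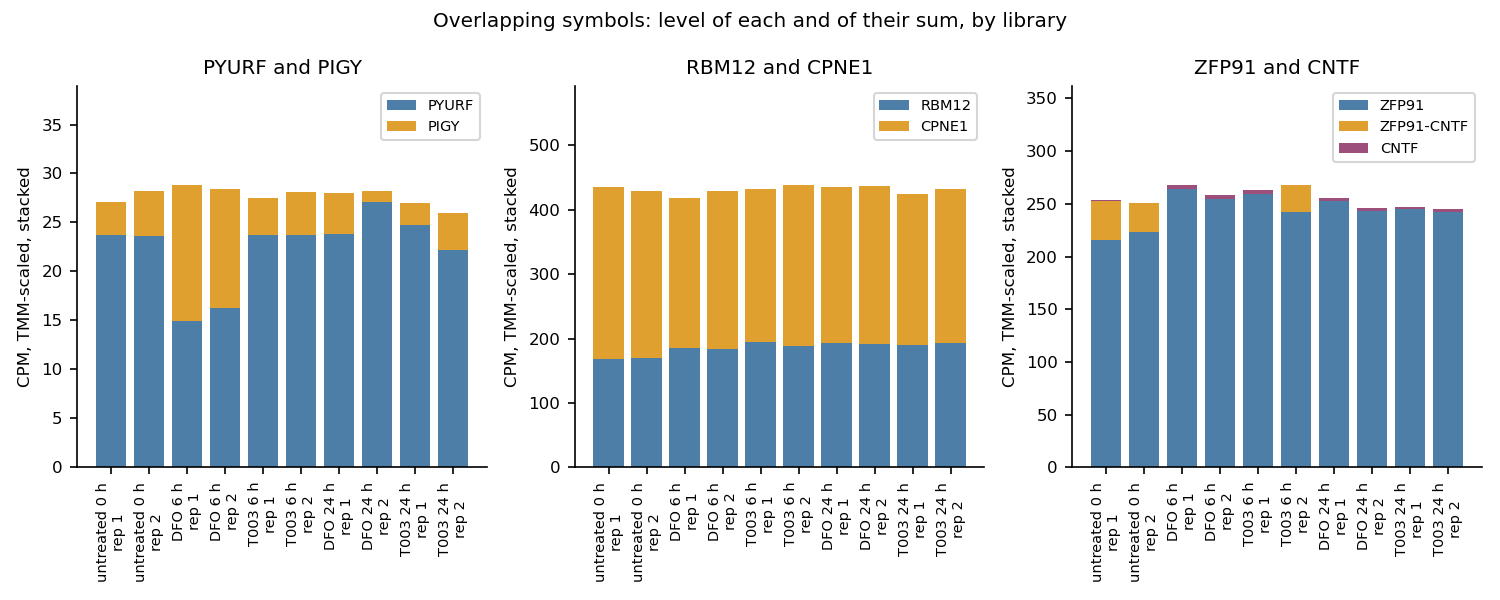
Stacked levels (CPM, TMM-scaled) of the overlapping symbols PYURF and PIGY, RBM12 and CPNE1, and ZFP91, ZFP91-CNTF and CNTF in the 10 libraries. The total height of a locus varied little between libraries, while its division between symbols changed, for PYURF and PIGY in both DFO 6 h libraries.

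Genes were then sorted by whether all 4 treated libraries lay on the same side of both untreated ones. By this rule 2038 genes lay above (10.1% of those tested) and 2137 below (10.6%). Among genes averaging 2 or more in log2 CPM they numbered 1414 and 1459, and the median size of their log2 difference was 0.0783, with a 95th percentile of 0.197. Over all genes tested, asking for a gap of at least 0.1 between the sides on the log2 scale left 447 above and 446 below.

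The side a gene fell on went with its GC content. Among genes averaging 2 or more in log2 CPM, those above had a median GC content of 40.61% and those below of 57.34%, with 47.31% for genes whose libraries overlapped. When genes were divided into 4 equal bins by GC content, in the lowest bin 31.4% lay above and 1.33% below. In the highest bin 1.49% lay above and 33.8% below. The trend was present in each treated 6 h library: the median log2 level against untreated in the lowest bin exceeded that in the highest by 0.188 and 0.0855 with DFO and by 0.0805 and 0.0578 with T003. At 24 h that difference was 0.0368 and 0.0328 with DFO and -0.0304 and 0.0105 with T003. Ribosomal RNA symbols took 0.159% and 0.0965% of counts in untreated, 0.222% and 0.153% in DFO and 0.206% and 0.263% in T003 libraries at 6 h. The part of GC content or of ribosomal RNA in any gene's difference was not tested. With each library's trend on GC content and transcript length removed, 1622 genes lay above (8.06%) and 1551 below (7.71%), and TFRC, PIM2, PPP1R16B and both LOC genes were still called. The removal reached the 16965 of 20125 genes tested whose GC content and length were known. The other genes entered these counts and shares unchanged.

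Of the separated genes averaging 2 or more in log2 CPM that missed the threshold, those with the smallest p are given as values. RBPJ, the DNA-binding factor of Notch signalling, was at 89.3 and 95.3 CPM untreated, 111 and 107.3 CPM with DFO and 106 and 108 CPM with T003 (log2 0.23, SE 0.0316, adjusted p = 0.0519). It had the smallest adjusted p of any gene not called and passed the threshold under 7 of 21 alternatives. At 24 h RBPJ was at 65.3 to 72.7 CPM. The mitotic kinesin genes KIF14 (log2 0.13) and KIF20B (0.14), the NF-κB signalling protease gene MALT1 (0.17), the signal peptidase subunit gene SPCS3 (0.13), the sialic acid hydroxylase pseudogene CMAHP (0.18), TTC39C (0.18) and the zinc finger gene ZNF107 (0.14) also lay above, with adjusted p from 0.0749 to 0.109. Their GC content, with TFRC, RBM12, PPP1R16B, RBPJ and ZFP91, ran from 34.31% to 54.51%, with a median of 39.94%.

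Below both untreated libraries, PIK3CD, the PI3-kinase subunit of lymphocytes, was at 517 and 499 CPM untreated and 464 to 472 CPM treated (log2 -0.12, SE 0.0202, adjusted p = 0.125). CORO1A, which encodes the actin regulator coronin of blood cells, was at 1553 and 1563 CPM against 1421 to 1471 CPM (log2 -0.10). NDOR1, a reductase that passes electrons to cytosolic iron-sulfur cluster assembly, was at 93.4 and 91.0 CPM against 80.6 to 86.9 CPM (log2 -0.14, adjusted p = 0.133). The others were the ubiquitin ligase gene TRAF7 (log2 -0.13), the immunoproteasome gene PSMB10 (-0.14), the genome maintenance genes TONSL (-0.16), EME2 (-0.20) and RECQL4 (-0.13), CORO7 (-0.13), the ribosomal protein gene RPS16 (-0.12) and the mTORC1 inhibitor gene TSC2 (-0.12). Adjusted p for these 11 genes ran from 0.0964 to 0.162. With PIM2 their GC content ran from 53.57% to 65.43%, with a median of 61.85%. All 12 genes named above and all 12 named below kept their sign when the GC and length trend was removed, with KIF20B going from 0.14 to 0.06, CORO1A from -0.10 to -0.04 and PPP1R16B from 0.15 to 0.18. CORO7 is part of the readthrough symbol CORO7-PAM16, which lay above untreated (log2 1.25, SE 0.449, adjusted p = 0.348). The sum of CORO7, PAM16 and CORO7-PAM16 lay below (log2 -0.09, SE 0.0269, adjusted p = 0.264).

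**Figure D3:**
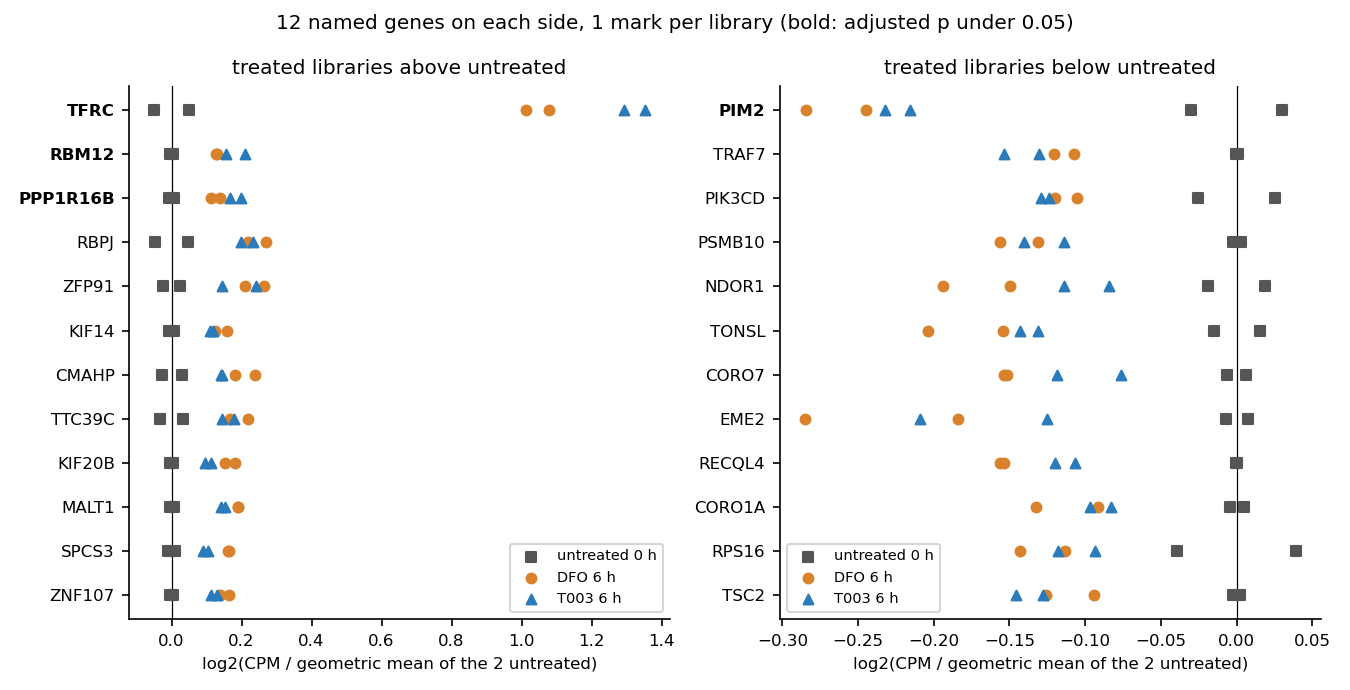
Log2 ratio of each 6 h and untreated library to the geometric mean of the 2 untreated libraries, for the 12 genes named above and the 12 named below (squares untreated, circles DFO 6 h, triangles T003 6 h; bold names were called). TFRC stands apart from all other genes shown, whose treated libraries lie close to the untreated ones.

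**Figure D4:**
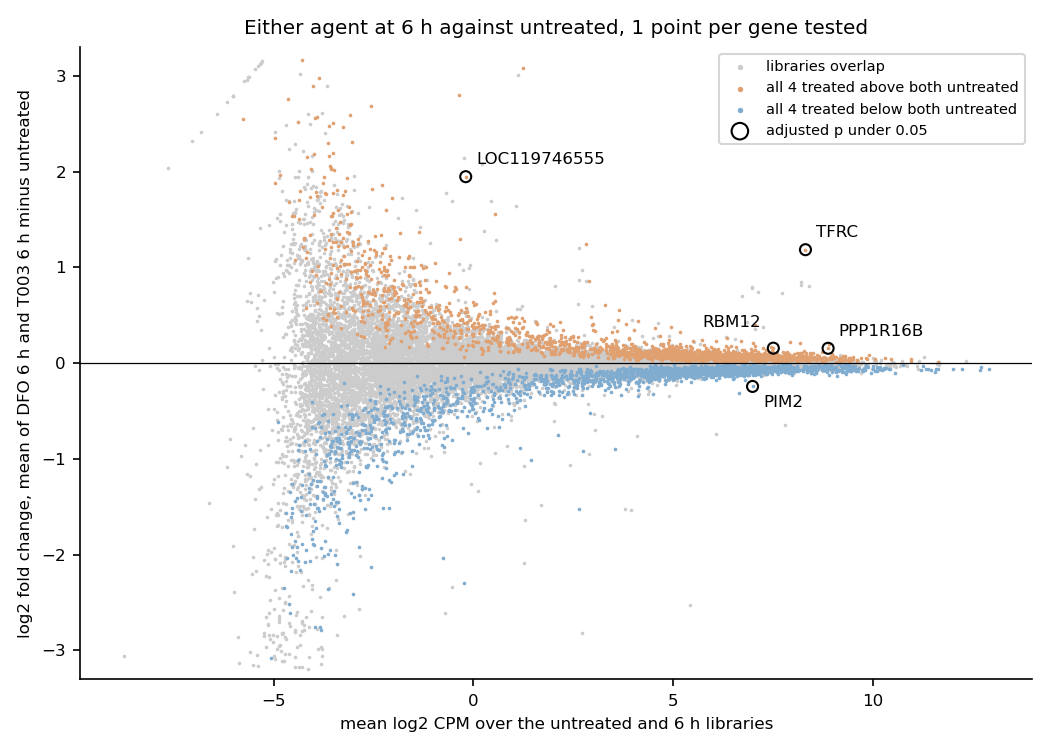
Log2 fold change of either agent at 6 h against untreated, plotted against mean log2 CPM, with 1 point per gene tested. Of 11 genes that changed 2-fold or more and averaged 2 or more in log2 CPM, TFRC alone was called. The other 10 were readthrough symbols or parts of one. The 175 genes beyond 3.2 in either direction, LOC107986708 among them, are not drawn, and 2 of the 175 averaged 2 or more in log2 CPM.

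Of the iron genes other than TFRC, none was called. The list of iron uptake, storage and sensing had 29 tested members, with 1 called (TFRC), 3 above and 4 below (2 and 2 with the GC and length trend removed), and its median log2 change was -3.9e-05, against -0.00312 over all genes tested. Of all genes tested, 10.1% lay above and 10.6% below, or 8.06% and 7.71% with that trend removed. FTL, the ferritin light chain, was at 449 and 460 CPM untreated, 423 and 440 CPM with DFO and 428 and 436 CPM with T003 (log2 -0.07, SE 0.0261, adjusted p = 0.346). FTH1, the heavy chain, was at 311 and 317 CPM untreated, 284 and 306 CPM with DFO and 325 and 320 CPM with T003. Its DFO libraries lay below and its T003 libraries above the untreated ones (log2 for both agents -0.03, SE 0.0294, adjusted p = 0.806). Both ferritin genes have near-identical pseudogenes, so their counts are uncertain. Among sensors, IREB2, iron regulatory protein 2, was at 170 and 166 CPM against 171 to 181 CPM (log2 0.05, adjusted p = 0.446), and ACO1, iron regulatory protein 1, was at 7.14 and 7.08 CPM against 6.79 to 7.44 CPM. FBXL5, the ligase subunit that marks iron regulatory proteins for decay, was at 52.2 and 53.7 CPM against 48.8 to 53.9 CPM. The transporter SLC11A2, the second transferrin receptor TFR2 (log2 -0.05) and the ferritin cargo receptor NCOA4 overlapped between the sides.

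Of 110 tested genes with a UTR match to the hairpin, 1 was called (TFRC), 19 lay above (17.3%) and 13 below (11.8%). With the GC and length trend removed they were 12 and 11. The shares of all genes tested were 10.1% above and 10.6% below, or 8.06% and 7.71% with the trend removed. Of 100 genes matched in the 3′ UTR, 19 lay above and 11 below, or 11 and 9 with the trend removed. Of 10 matched in the 5′ UTR, 0 lay above and 2 below, or 1 and 2 with the trend removed. In haem and iron-sulfur cluster synthesis, 0 of 30 members were called, 2 lay above, among them ALAS1, the first enzyme of haem synthesis, and 5 below, or 4 and 4 with the trend removed. UROD, a later enzyme of haem synthesis, was among the 5 (log2 -0.12, adjusted p = 0.318). Hypoxia and HIF targets, which need iron-dependent hydroxylases to stay low, had 0 of 30 called, 5 above and 1 below, or 3 and 3 with the trend removed. NDRG1 was at 4.64 and 4.25 CPM untreated and 3.26 to 3.77 CPM treated (log2 -0.34, SE 0.101, adjusted p = 0.285), while KDM3A was at 56.5 and 56.6 CPM against 58.8 to 61.4 CPM (log2 0.09, adjusted p = 0.305). The glucose transporter gene SLC2A1 and the kinase gene PDK1 overlapped between the sides, at 81.8 to 87.2 CPM and 20.5 to 23.3 CPM over the 6 libraries.

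Immediate early genes, which respond within minutes to hours to growth signals, had 0 of 31 called, 2 above (CSRNP1 and MCL1) and 0 below, or 1 and 0 with the trend removed. Over all genes tested the shares were 10.1% above and 10.6% below, or 8.06% and 7.71% with the trend removed. FOS was at 1.32 and 0.742 CPM untreated and 1.09 to 1.30 CPM treated. EGR1 was at 2.76 and 1.45 CPM against 1.95 to 2.35 CPM, and MYC was at 578 and 533 CPM against 507 to 547 CPM (log2 -0.08, SE 0.0366, adjusted p = 0.428). Of 27 genes around the IL-2 receptor and STAT5, 1 was called (PIM2), 2 lay above and 5 below, or 1 and 4 with the trend removed. PIM1 and CISH, other STAT5 targets, overlapped between the sides, at log2 0.05 (SE 0.0291) and -0.03 (SE 0.0235), and the list's median was -0.03.

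Among genes of natural killer function, 0 of 34 receptors and adaptors, 0 of 19 cytotoxic granule genes and 0 of 17 cytokines and chemokines were called. CD96, an inhibitory receptor, was at 276 and 274 CPM untreated and 289 to 298 CPM treated (log2 0.10, SE 0.02, adjusted p = 0.162). KLRD1, which encodes CD94, was at 49.9 and 50 CPM against 52.1 to 57.1 CPM (log2 0.12, adjusted p = 0.247). NKG7, a granule membrane gene, was at 888 and 904 CPM against 834 to 853 CPM (log2 -0.08, adjusted p = 0.183). IFNG was at 8.31 and 6.02 CPM untreated and 6.28 to 6.65 CPM treated, and GZMB and PRF1 overlapped as well. NK transcription factors had 0 of 23 called, 3 above and 0 below, or 5 and 2 with the trend removed. Granule genes had 2 members above and 7 below, which were 1 and 3 with the GC and length trend removed. Receptors and adaptors had 7 above and 6 below, then 5 and 6, and cytokines and chemokines 2 above and 2 below, before and after. Shares of all genes tested were 10.1% above and 10.6% below before removal, and 8.06% and 7.71% after.

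The shares of all genes tested, against which list counts are to be read, were 10.1% above and 10.6% below, and 8.06% and 7.71% with the GC and length trend removed. Glycolysis had 3 of 21 above and 9 below (42.9%), among the latter GAPDH (log2 -0.07, SE 0.0158, adjusted p = 0.218), ENO1 (-0.06) and PKM (-0.06). With the GC and length trend removed 0 lay above and 6 below. The TCA cycle and respiratory chain had 2 of 39 above and 13 below, or 1 and 7 with the trend removed, with MDH2 at log2 -0.07 (adjusted p = 0.302). Sterol synthesis and SREBP2 targets had 7 of 29 above and 1 below, and 8 and 0 with the trend removed. The sterol carrier gene STARD4 was at 59.9 and 60.4 CPM untreated and 65.6 to 67.9 CPM treated (log2 0.15, SE 0.0262, adjusted p = 0.133), IDI1 was at 112 and 120 CPM against 125 to 132 CPM, and HMGCS1 at 299 and 309 CPM against 320 to 332 CPM. Endoplasmic reticulum chaperones had 7 of 21 above and 0 below, or 3 and 0 with the trend removed. HSP90B1 was at 916 and 923 CPM against 944 to 1017 CPM (log2 0.09, adjusted p = 0.253). Genes of G2/M and mitosis had 9 of 33 above and 2 below, or 4 and 4 with the trend removed, with CENPF, a kinetochore gene, at 419 and 456 CPM against 490 to 525 CPM (log2 0.19, SE 0.0371, adjusted p = 0.162). No member of these 5 lists was called.

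The remaining lists held no called gene either, by the same edgeR test, and their counts are given first as measured and then with the trend removed. Shares of all genes were 10.1% above and 10.6% below as measured, then 8.06% and 7.71%. Ribosome biogenesis had 5 of 37 above and 6 below, then 2 and 1, and the MYC network 1 of 17 above and 5 below, then 1 and 1. Replication and nucleotide genes had 6 of 29 above and 6 below, then 0 and 2, and G1 and E2F genes 3 of 17 above and 2 below, then 3 and 0. Among stress responses, ATF4 targets had 4 of 32 above and 4 below, then 6 and 2, and NRF2 and ferroptosis genes 2 of 22 above and 4 below, then 0 and 2. Heat shock genes had 3 of 15 above and 1 below, then 0 and 0, and p53 targets 3 of 22 above and 3 below, then 2 and 1. Interferon-stimulated genes had 4 of 29 above and 1 below, then 4 and 3, and fatty acid synthesis 2 of 15 above and 5 below, then 2 and 3. For 2-oxoglutarate and iron dioxygenases 4 of 33 lay above and 1 below, then 1 and 2. The BCL2 family had 2 of 16 above and 1 below, then 1 and 2, and MAPK feedback genes 1 of 16 above and 1 below, then 0 and 1. Clock genes had 0 of 20 above and 1 below, then 0 and 1, and replication-dependent histones 0 of 18 above and 4 below, then 0 and 1.

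**Figure D5:**
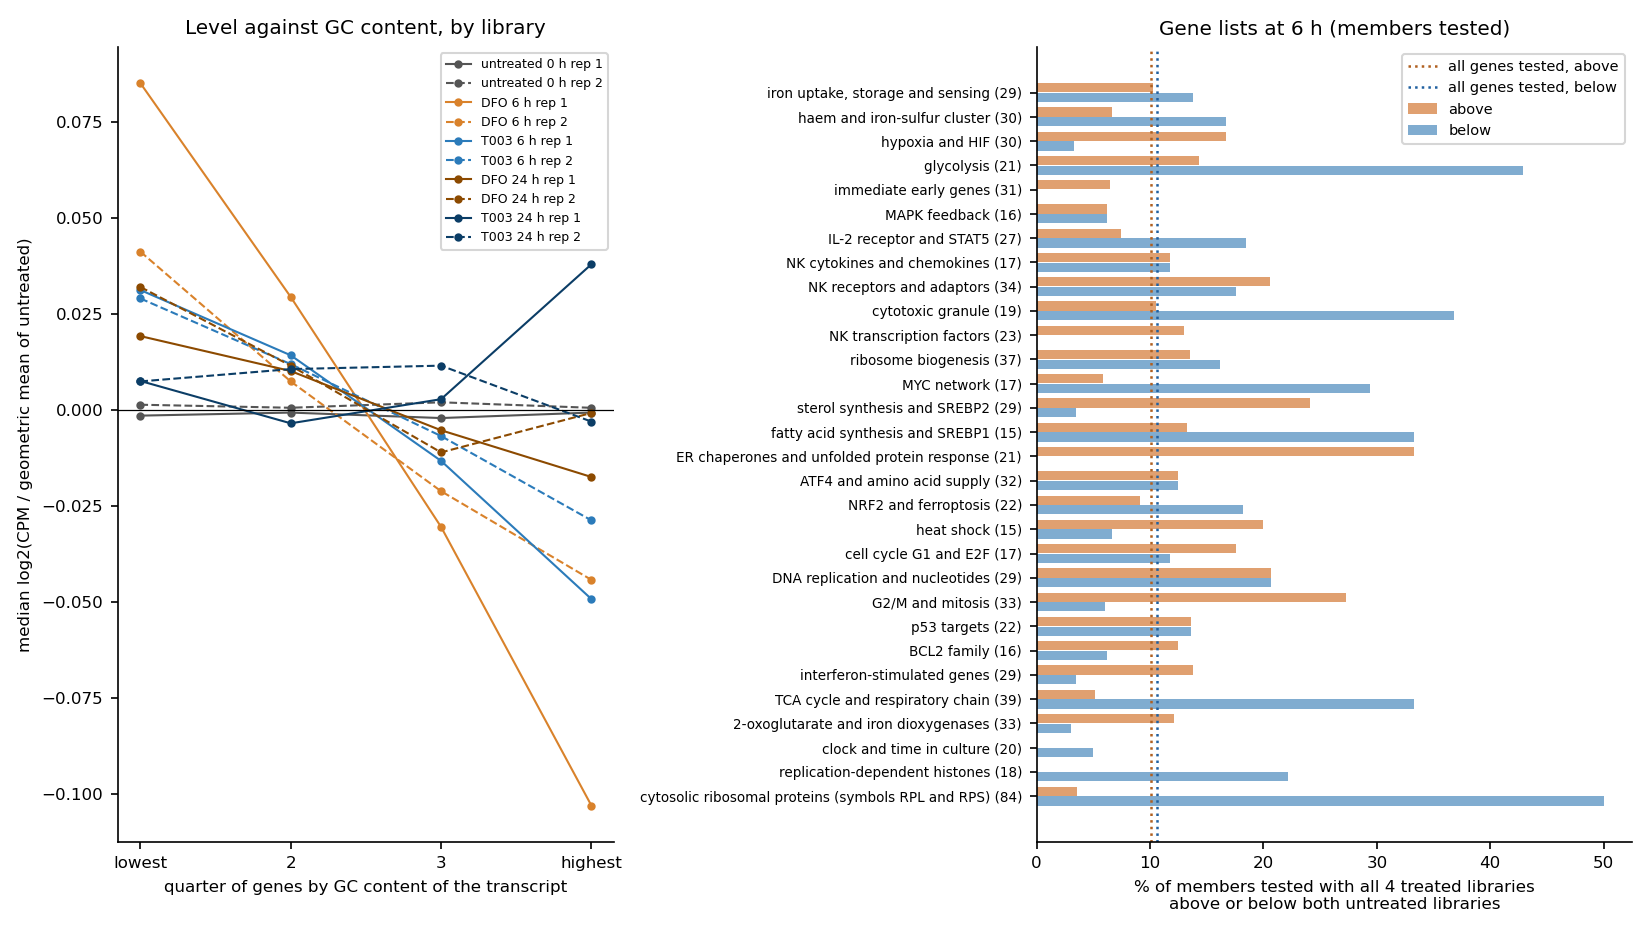
Left, median log2 level of each library against untreated in 4 equal bins of genes by GC content (lines solid for replicate 1, dashed for replicate 2). Right, share of each list's tested members with all 4 treated 6 h libraries above or below both untreated ones, with dotted lines at the shares of all genes, 10.1% and 10.6%. The 6 h libraries slope downward with GC content, most in DFO replicate 1, and several lists depart from the dotted lines while holding few or no called genes.

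The agents were compared with each other at 6 h, at the 1 dose of each. At an adjusted p under 0.05, 0 genes (0%) were called, 1334 had an unadjusted p under 0.05, and limma-voom called 1 and DESeq2 14. The smallest adjusted p was 0.064, for TFRC and PYURF. TFRC was 0.28 lower with DFO than with T003 (log2 -0.28, 95% interval -0.35 to -0.20), with 361 and 345 against 437 and 419 CPM and no overlap. This difference for TFRC kept its sign under all 20 alternatives and was called under 10 of them. PYURF was at 14.9 and 16.3 CPM with DFO and 23.8 and 23.7 CPM with T003 (log2 -0.60, 95% interval -0.77 to -0.44), while PIGY, which shares its transcript, was at 13.9 and 12.1 CPM against 3.68 and 4.37 CPM. Summed, PYURF and PIGY stood at 28.7 and 28.4 CPM with DFO and 27.4 and 28.2 CPM with T003 (log2 0.04, adjusted p = 0.933). HSPA5, an endoplasmic reticulum chaperone, was 0.12 lower with DFO (log2 -0.12, 95% interval -0.17 to -0.08, adjusted p = 0.691). PIM2 (95% interval -0.10 to 0.02), LOC119746555 (-0.39 to 0.52) and RBPJ (-0.05 to 0.11) had intervals of the log2 difference that include 0, which does not show that the agents act alike on them.

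At 24 h, against the 6 h libraries, 2185 genes were called higher (10.9%) and 1874 lower (9.31%) over both agents. This contrast set 4 libraries against 4, while that of 6 h set 4 against 2 untreated ones. The 2 counts of calls therefore differ in power and reference and cannot be compared directly. Several genes that lay above untreated at 6 h stood below untreated at 24 h. These were singled out after their values were seen, except EPHA1, and none was called at 6 h. EPHA1, an ephrin receptor gene, was at 8.45 and 10.8 CPM untreated, 13.1 to 14.7 CPM at 6 h (log2 0.55, SE 0.131, adjusted p = 0.21) and 0.634 to 1.03 CPM at 24 h. Its difference between 24 h and 6 h was -4.18 (log2, SE 0.127, adjusted p = 1.96e-08). CSF1, a macrophage growth factor gene, was at 244 and 275 CPM untreated, 289 to 317 CPM at 6 h (log2 0.21, SE 0.0411, adjusted p = 0.162) and 142 to 148 CPM at 24 h (log2 -1.06, SE 0.0338, adjusted p = 1.96e-08). IL9R, a cytokine receptor gene, was at 23.4 and 27.8 CPM, 31.8 to 34.5 CPM and 10.6 to 12.1 CPM at the 3 times.

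SKI and SKIL, corepressors of TGF-β signalling, had the same order. For both, and for CSF1 and IL9R, the untreated libraries lay further apart than the higher of them lay from the lowest 6 h library. SKIL was at 28.1 and 33.9 CPM untreated, 36.6 to 40.8 CPM at 6 h and 13.8 to 17.7 CPM at 24 h (log2 against 6 h -1.29, SE 0.0575, adjusted p = 1.46e-07). SKI was at 66.2 and 76.4 CPM, 79.5 to 89.7 CPM and 36.7 to 44.7 CPM. SMAD3, a transducer of that pathway, ran the other way, at 13.5 and 11.5 CPM untreated, 9.87 to 10.5 CPM at 6 h and 17.2 to 18.4 CPM at 24 h (log2 against 6 h 0.81, SE 0.0576, adjusted p = 3.81e-06). PAX5, listed as a B cell marker, was at 0.577 and 1.39 CPM untreated, 1.41 to 1.94 CPM at 6 h and 0.138 to 0.296 CPM at 24 h. The cytokine genes IFNG and CCL3 and the MAPK phosphatase gene DUSP6 overlapped between untreated and 6 h and were called higher at 24 h against 6 h, by 1.15 (SE 0.0892), 0.996 (SE 0.0589) and 0.66 (SE 0.0586) on the log2 scale.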

How the data were processed

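RNA was extracted with Qiazol and polyadenylated RNA was sequenced from TruSeq libraries, per the labels' protocols. The deposited values are whole-number estimated counts per gene symbol that the authors made with fastp 0.21.0, HISAT2 2.2.1 and StringTie 2.1.6 on hg38, per the submitters' processing notes. The strand setting and annotation release are not given in the sources used here. Totals were 107117892 to 143575614 counts per library. All 10 libraries entered 1 fit of 5 groups, each of n = 2, with edgeR 4.0.16 in R 4.3.3: filterByExpr with a minimum count of 10, TMM scaling, the quasi-likelihood F-test and Benjamini-Hochberg adjustment over 20125 genes. The early contrast was the mean of both agents at 6 h minus untreated. Standard errors are the log2 change divided by the root of F. The fit was also run on simulated counts with known changes. These held no GC trend and no division of counts between overlapping symbols, so that run cannot speak to either. Gene coordinates came from RefSeq (GRCh38.p14), which matched 51616 of 54628 symbols. GC content and transcript length came from GENCODE canonical transcripts, which covered 16965 of the 20125 genes tested. Genes named were the 12 per direction with no overlap between sides and a mean log2 CPM of at least 2, called genes by fold and then others by smallest p, from each list the 3 tested members of lowest p, and a panel of iron and natural killer genes. Further genes were singled out after their values were seen: CSF1, IL9R, SKI, SKIL, SMAD3, PIGY, CPNE1, CNTF, ZFP91-CNTF, TVP23C, TVP23C-CDRT4, RACK1, RPL10, SLC5A3, CDRT4, ACO1, SLC11A2, TFR2, SLC2A1, PDK1, GZMB, PRF1 and PKM. Some genes are not reported here. The members and lists were chosen with earlier results of these data known. Alternatives were other scaling, filters, DESeq2 1.42.0, limma-voom 3.58.1, a replicate block, fewer libraries, other thresholds and, chosen after seeing the data, removal of the GC and length trend by loess and summing of overlapping symbols.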

Additional observations from a re-analysis of the deposited data

Results flagged for a closer look

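A set of 156 genes held those named by the rule and part of those singled out. For 4 of the 156 (2.56%), both DFO libraries at 6 h lay on the opposite side of untreated from both T003 libraries. The same held for 481 of all 20125 genes tested (2.39%). CDRT4, ACO1, SLC11A2, TFR2, SLC2A1, PDK1, GZMB, PRF1 and PKM were not among the 156, and SLC5A3 was singled out after its values were seen. FTH1 was at 284 and 306 CPM with DFO and 325 and 320 CPM with T003, a log2 difference of -0.128 (edgeR adjusted p = 0.706). PYURF differed by -0.603 (adjusted p = 0.064), and its sum with PIGY by 0.04. CD68, a myeloid marker, was at 2.22 and 2.31 CPM with DFO and 2.52 and 3.15 CPM with T003, a log2 difference of -0.321 (adjusted p = 0.798). SLC5A3, an inositol transporter gene, was at 225 and 213 CPM with DFO and 195 and 195 CPM with T003, against 211 and 206 CPM untreated, a log2 difference of 0.17 (adjusted p = 0.592). None of the 4 differences between the agents passed the test.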

How the results depend on the processing

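The count of 6 genes called at 6 h was 332 with DESeq2, 39 with limma-voom, 15 at an adjusted p under 0.1 and 2 at one under 0.01, and the cause was not tested. It ran from 3 to 17 when a library was left out: 17 without untreated replicate 2, 14 without T003 6 h replicate 2, 10 without DFO 6 h replicate 2 and 3 without DFO 6 h replicate 1. TFRC and PIM2 were called in all 21 alternatives, and DESeq2 also called PPP1R16B and RBM12. Without either untreated library PPP1R16B, RBM12, LOC119746555 and LOC107986708 were no longer called. RBM12 turned to -0.0095 when summed with CPNE1. Between the agents, 0 genes became 2 with no filter, 2 with the filter of 1 CPM, 14 with DESeq2, 1 with limma-voom, 3 in a fit of the 6 libraries, 2 at an adjusted p under 0.1, 1 with the GC and length trend removed, with or without the block, 1 with overlapping symbols summed, and 0 to 4 when a library was left out. The 4175 separated genes were 893 with a gap of 0.1 and 5347 to 8928 when a library was left out, a rule that asks less of fewer libraries. With the replicate number as a block, 3 genes were called at 6 h (TFRC, PIM2 and LOC119746555) and 1 between the agents. Deviations of libraries with the same number correlated at -0.265 and -0.273 between untreated and each agent at 6 h and at 0.000521 between the agents. Over all 10 pairs of groups they ran from -0.344 to 0.325, the highest between T003 at 6 h and DFO at 24 h, so not every pair exceeded 0.1 and the numbers were not taken to pair the libraries. With n = 2 per group, differences near the spread between libraries were not detectable.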

Other observations

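Genes with symbols of cytosolic ribosomal proteins, a list chosen after values were seen, leaned lower at 6 h without a call. Members were taken by RPL and RPS symbols, so paralogs are included. RPL7L1 and RPL22L1 were among those above, and RPL3L and RPL26L1 among those below. Of 84 tested, 3 lay above and 42 below both untreated libraries (50%, against 10.6% of all genes). With the GC and length trend removed 1 lay above and 39 below, against 8.06% and 7.71% of all genes. The median log2 change was -0.0435 (all genes -0.00312), and edgeR called 0. At an unadjusted p under 0.05 in the same test, 0 of the 84 were higher and 35 lower. Of all 20125 genes tested, 1093 were higher and 1177 lower at that threshold. RPL10 was at 781 and 795 CPM untreated and 728 to 754 CPM treated (adjusted p = 0.179). RACK1, a scaffold protein of the small ribosomal subunit, was at 1247 and 1246 CPM against 1171 to 1191 CPM (adjusted p = 0.182). Ribosomal protein genes have many processed pseudogenes, so counts of single members are uncertain. The part of ribosomal RNA carried into the libraries, which was higher in 3 of the 4 treated libraries than in untreated replicate 1, was not tested.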
